A study of Trametes coccinea with 18 samples.

Results

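The transcriptome of Pycco 310 on wheat straw was set against that on maltose, over all gene models of the strain. The members of this comparison were chosen by their titles and hold 6 of the 18 libraries of the series, 3 from wheat straw cultures and 3 from maltose cultures. Pycco 310 is strain CIRM-BRFM 310 of the white-rot fungus Pycnoporus coccineus (now Trametes coccinea). By the sample labels, cultures on wheat straw received 15 g/l of the ground and sifted straw together with 2.5 g/l of maltose, and cultures on maltose received 20 g/l of maltose. The methods of the study instead name each substrate as the only source of carbon, and the labels were followed here. Both groups grew in the same salts with yeast extract, in shaken flasks at 30 °C, and were collected on day 3. If the labels hold, the presence of straw and the lower amount of maltose cannot be told apart here. What was collected from the straw cultures also held what was left of the substrate. A change in RNA per cell and a change in which cells or hyphae were collected cannot be told apart in such bulk samples.

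White-rot fungi decompose wood and straw with secreted enzymes. Class II peroxidases and the oxidases that supply them with hydrogen peroxide act on lignin, lytic polysaccharide monooxygenases and cellulases open cellulose, and xylanases, pectinases and esterases act on the other cell wall polysaccharides. The sugars and aromatic compounds released are taken up by transporters and converted in the cell by reductases, monooxygenases and cytochrome P450. Maltose is a glucose disaccharide that needs little of this machinery. Each CAZy family name used below (AA for auxiliary redox enzymes, GH for glycoside hydrolases, CE for carbohydrate esterases, CBM for carbohydrate-binding modules) comes from the annotation that the study gave for this strain.

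Library totals were 39625182, 42190522 and 38001502 counts on wheat straw, against 32853022, 35011152 and 29889534 on maltose. Replicates differed by more than sampling noise, with chi-square values over genes, per degree of freedom, of 88 to 364 on wheat straw and 23.5 to 143 on maltose, so each test rests on the spread between libraries. Maltose replicate 3 stood apart from the other maltose libraries, with a TMM factor of 1.165 beside 0.9373 and 0.9428. On wheat straw, replicates 1 and 2 were the pair farthest apart. The 6 libraries entered a fit with the libraries of Avicel (purified cellulose), aspen and pine, 15 in all, which share an estimate of the spread. The xylan-galactomannan libraries were kept out because the labels of the library titled replicate 3 disagree with each other. Normalised read counts below are raw counts divided by the TMM-scaled library size, relative to the geometric mean of these 15 libraries.

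Transcript levels differed between wheat straw and maltose cultures for 3357 of the 11112 gene models tested. Of these, 1926 (17.3%) were up-regulated and 1431 (12.9%) down-regulated on wheat straw in comparison to maltose, by the limits used throughout, an adjusted p below 0.05 together with more than 1 log2 of change. The median log2 fold change was 1.82 among the up-regulated and -1.66 among the down-regulated gene models, and 0.02 over all gene models tested. Changes beyond 3 log2 were found for 448 up-regulated (4.03% of those tested) and 221 down-regulated gene models (1.99%), and changes beyond 5 log2 for 119 and 64. The 3 wheat straw libraries did not overlap the 3 maltose libraries for 1900 of the up-regulated and 1416 of the down-regulated gene models, beside 61.4% of all gene models tested. A further 1993 gene models had an adjusted p under 0.05 with a change of at most 1 log2.

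The up-regulated gene models were mostly weakly transcribed on maltose, and the down-regulated ones were well transcribed there. The median normalised read count of the up-regulated gene models was 863 on wheat straw, against 166 on maltose. That of the down-regulated gene models was 442 on wheat straw, against 1734 on maltose. Together the up-regulated gene models held 27.8 to 31% of the counts of a wheat straw library and 5.35 to 6.21% of a maltose library. The down-regulated ones held 8.91 to 9.48% on wheat straw and 36 to 38.9% on maltose. These shares follow from the calls and describe their weight in the libraries. Of the 12690 gene models, 849 had no count in any of the 6 libraries, 980 had none in the maltose libraries and 912 none in the wheat straw libraries. Of those without a count on maltose, 7 were called up.

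**Figure D1:**
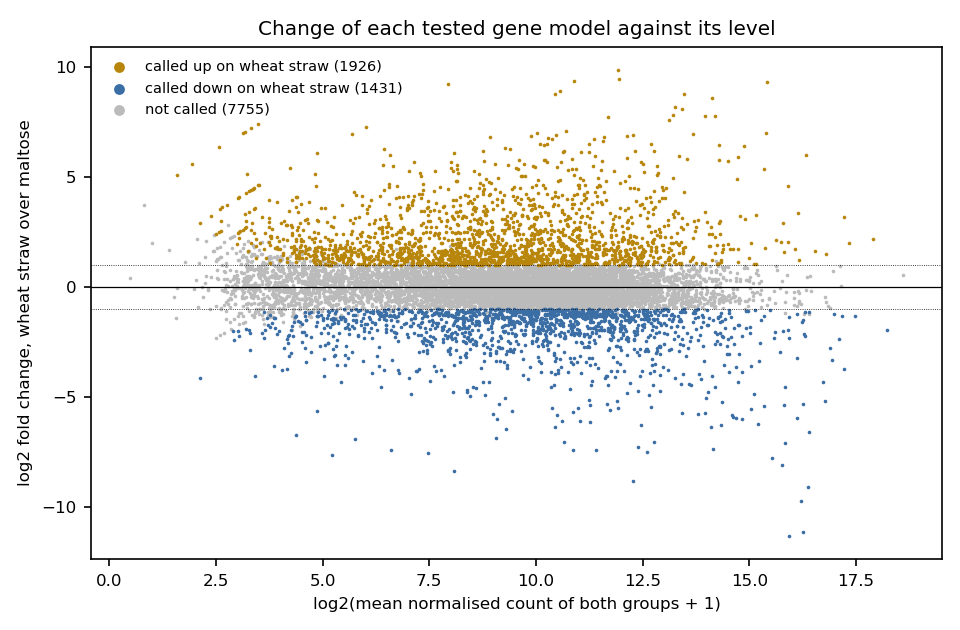
Log2 fold change of each tested gene model, wheat straw over maltose, against the log2 of its mean normalised read count over both groups plus 1. Points mark the 1926 gene models called up, the 1431 called down and the 7755 not called, dotted lines a change of 1 log2. Rises reached 9.84 log2 and falls -11.30 log2.

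Among the 12 largest rises, selected for libraries that did not overlap and a mean normalised read count of at least 100, were an AA9 lytic polysaccharide monooxygenase, an AA2 peroxidase, a CBM1-CE16 acetylesterase and a pair of genes annotated as tripeptidyl-peptidases. The sources used here name no function for the other 7. The 12 gene models together held 0.722 to 0.852% of the counts of a wheat straw library, against 0.00108 to 0.00278% on maltose. Some of them were near silent on maltose but varied widely among the straw cultures, while others had nearly the same level in each.

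The AA9 gene 1466495, whose product cleaves cellulose oxidatively, had 1335, 14567 and 7518 normalised read counts on wheat straw and 6.73, 8.38 and 9.92 on maltose. Its log2 fold change of 9.84 (SE 1.01, adjusted p = 8.34e-07) was the largest rise under this selection with all libraries, although wheat straw replicate 1 lay well below the other straw libraries. Without wheat straw replicate 2 it was 9.02, below the values of 1447350 (9.44), 271638 (9.37) and 1438837 (9.33) with all libraries. The tripeptidyl-peptidase gene 1438837 had 150818, 36087 and 75723 on wheat straw against 71.8, 116 and 219 on maltose, a rise of 9.33 log2 (SE 0.82, adjusted p = 1.72e-07). Here replicate 1 was the highest of the straw libraries. The name rests on an EC number in the annotation alone, and the text of the study places this gene among secreted proteins of unknown function. The second gene for a tripeptidyl-peptidase I, an acid peptidase that takes tripeptides off the ends of proteins, was 1444114, with 18565, 52316 and 35527 on wheat straw, against 78.6, 67.0 and 130 on maltose.

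The AA2 peroxidase gene 1468611 was steady among the straw cultures, with 24944, 18358 and 24830 normalised read counts, against 31.4, 56.5 and 65.5 on maltose. Its log2 fold change was 8.79 (SE 0.63, adjusted p = 2.36e-08). The CBM1-CE16 gene 1439328 had 6075, 28440 and 21906 on wheat straw and 57.2, 38.7 and 152 on maltose, and rose by 7.82 log2 (SE 0.81, adjusted p = 9.14e-07). CE16 enzymes take acetyl groups off carbohydrates, and a CBM1 module binds cellulose.

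Of the gene models without a named function, 1447350 was the steadiest on wheat straw, with 7504, 7519 and 8564 normalised read counts, against 13.5, 2.09 and 17.9 on maltose (log2 fold change 9.44, SE 0.46, adjusted p = 9.37e-10). Gene model 1448556 had 29367, 16405 and 19816 on wheat straw and 76.3, 52.4 and 109 on maltose, a rise of 8.10 log2 (SE 0.43). Gene model 1477222 showed the widest spread, with 6445, 538 and 1402 on wheat straw, against 4.49, 2.09 and 11.9 on maltose. Its rise of 8.77 log2 (SE 1.00, adjusted p = 2.44e-06) became 7.24 without wheat straw replicate 1. Similarly uneven, 271638 had 7104, 1499 and 2792 on wheat straw and 8.98, 2.09 and 5.95 on maltose.

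The remaining rises of this group were those of 1447774 (8.89 log2, SE 0.44), 1430513 (8.17 log2, SE 0.59) and 1475292. Gene model 1447774 was also higher on wheat straw than on Avicel, aspen and pine, by 5.87, 4.14 and 2.87 log2 (SE 0.31 to 0.36). Gene model 1430513 was higher than on these by 1.46, 5.83 and 3.45 log2 (SE 0.43 to 0.52). Gene model 1475292 had 158, 1343 and 530 raw counts on wheat straw, against 0, 0 and 2 on maltose. The ratio of its summed counts per scaled library size was 724, with a 95% interval of 200 to 5982 that covers counting error only (exact binomial method). Counts from 1 to 19 were even in 73.3 to 81.3% of cases in these libraries, and the reads were paired, so the interval may be narrower than the number of sequenced fragments allows. The fitted value of 1475292 moved to 11.98 log2, in place of 9.23, without maltose replicate 3, which holds its only counts on maltose.

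Several of the 12 largest falls were abundant on maltose, and 1369309 was among the 5 most transcribed gene models per unit of length there. The 12 together accounted for 0.00415 to 0.00649% of the counts of a wheat straw library, against 2.21 to 2.59% on maltose. None of them carries a CAZy family, KOG or EC number in the tables used here, so they are given by identifier. These tables name genes picked on plant substrates and in secretomes, and they annotate 153 of the up-regulated but 1 of the down-regulated gene models.

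Gene model 1466629 fell most, with 64.0, 8.35 and 78.1 normalised read counts on wheat straw, against 145895, 160248 and 70615 on maltose (log2 fold change -11.30, SE 1.46, adjusted p = 9.62e-06). Gene model 1466450 had 72.4, 51.5 and 88.4 on wheat straw and 184954, 170706 and 111922 on maltose, a log2 fold change of -11.10 (SE 1.37, adjusted p = 5.53e-06). Both had the largest standard errors of the 24 named by size of change. For both, the level on aspen did not differ from that on wheat straw past the limits, with log2 differences of -0.38 (SE 1.05) and 0.68 (SE 1.00). Avicel and pine were higher by at least 3.66 log2 than wheat straw. The pine libraries were far apart, with 3391, 224 and 43.2 normalised read counts for 1466629 and 3251, 175 and 32.0 for 1466450. Pine replicate 3 lay within the straw range for 1466629 and below it for 1466450.

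Gene model 1369309 had 94.0, 261 and 185 normalised read counts on wheat straw, against 153872, 153846 and 146876 on maltose. Its log2 fold change was -9.72 (SE 0.69, adjusted p = 2.16e-08), and the maltose libraries differed little from each other. Gene model 1434227 had 502, 204 and 250 on wheat straw and 173123, 187837 and 149599 on maltose (log2 fold change -9.06, SE 1.08). The other 8 falls ranged from -8.81 to -7.41 log2. They covered very different levels, since 1437823 averaged 408 on wheat straw and 110438 on maltose, and 1468038 averaged 1.75 and 351. On wheat straw 1468038 had 0, 2.09 and 3.16 normalised read counts, near the limit of detection.

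**Figure D2:**
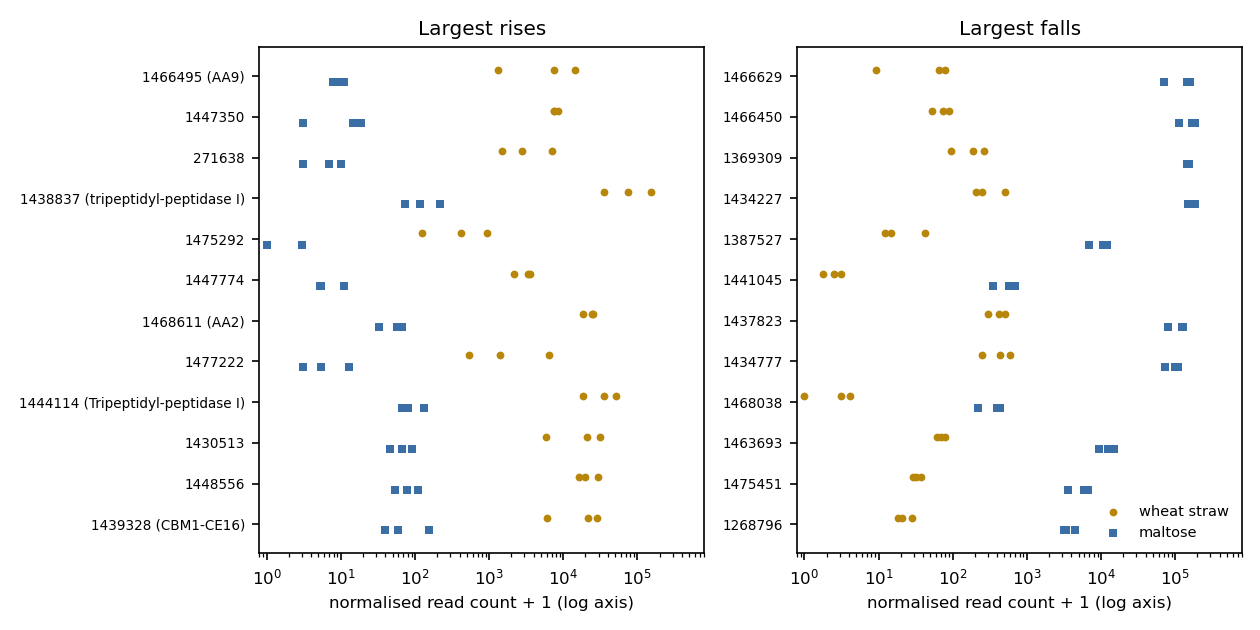
Normalised read counts plus 1 (log axis) of the 12 gene models with the largest rises (left) and falls (right), 1 point per library, with wheat straw as circles and maltose as squares. In no gene model shown do the 3 wheat straw libraries overlap the 3 maltose libraries.

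The 5 most transcribed gene models per unit of length on wheat straw were compared with those on maltose in RPKM, the authors' reads per kilobase of mappable length scaled to the library total. On wheat straw these were 1434042 (4445, 11471 and 8033 RPKM), 1455676 (6556, 8031 and 8359), 1429921 (4097, 9371 and 5762), 1362422 (5025, 6899 and 6444) and 137321 (5100, 7575 and 5274). On maltose they were 1429921 (26167, 22610 and 14370 RPKM), 1369309 (16963, 17058 and 20127), 1439266 (14564, 12968 and 7798), 1475073 (11875, 11782 and 10492) and 1464925 (10138, 10052 and 8512). Only 1429921 stood in both groups of 5. The levels at the top of the list were thus higher on maltose than on wheat straw. In normalised read counts, 1362422 rose on wheat straw by 2.06 log2 (SE 0.23) and 1434042 by 1.61 (SE 0.31). The 5 leading gene models of maltose all fell, by -1.31 (1439266 and 1475073), -1.95 (1429921), -3.70 (1464925) and -9.72 log2 (1369309). For 1455676 the difference of 0.56 (SE 0.28, adjusted p = 0.116) and for 137321 that of 0.68 (SE 0.27, adjusted p = 0.0432) did not pass the limits. The calls of 1434042, 1429921, 1439266 and 1475073 were lost with Bonferroni adjustment.

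Gene lists were built from the annotation of 330 gene models in the study's supplementary tables. One kind of table lists genes of transcript clusters that were high on a plant substrate and not on maltose or Avicel, and another lists genes of clusters rich in secreted proteins. Both were picked on these libraries, so the direction of a member is not independent evidence. The number of members from the plant substrate tables is therefore given with each count. Every list member passed the filter on low counts. Of all gene models tested, 17.3% were up-regulated. Members of the plant substrate tables had passed a like filter against maltose, so a higher share among them was partly fixed in advance. Clusters high on Avicel were left out of these tables, so a level above that on Avicel was partly selected too.

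All 7 lignin-active oxidoreductases in the tables rose on wheat straw, with a median log2 fold change of 6.12 (6 of them from the plant substrate tables). They are 4 genes of the AA2 peroxidases, the family of the lignin-oxidizing enzymes, an AA3_2 and an AA3_3 oxidoreductase and an AA5_1 copper radical oxidase, families known for producing hydrogen peroxide. Of the AA2 genes, 1468611 and 1464049 carry the EC number of an ascorbate peroxidase, an enzyme of the same family that removes hydrogen peroxide and does not attack lignin. Both also have a predicted signal peptide for secretion, and the study proposes that they may take part in lignin breakdown. The list held 0.27 to 0.331% of the counts of a wheat straw library, against 0.00184 to 0.00334% on maltose. The AA3_3 gene 1368318, of the family of alcohol oxidases, was the most abundant, with 35090, 38900 and 37666 normalised read counts on wheat straw and 137, 156 and 219 on maltose (log2 fold change 7.77, SE 0.65). This gene carries the EC number of a choline dehydrogenase and has no predicted signal peptide, while the study proposes that it could act in lignin breakdown. The AA2 gene 1436321 had 25634, 10892 and 16374 on wheat straw and 69.6, 63.9 and 141 on maltose (7.59, SE 0.71). For the AA3_2 gene 1429888 the values were 5731, 4266 and 4377 on wheat straw and 30.3, 69.1 and 105.2 on maltose (6.12, SE 0.39). The other AA2 genes, 1431101 and 1464049, rose by 4.49 and 4.06 log2, and the AA5_1 gene 1480943 by 4.33.

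Tested directly, 6 of the 7 lignin-active genes were higher on wheat straw than on Avicel (13.3% of all gene models), by 2.28 to 8.49 log2. The exception was the AA3_2 gene, at 0.74 (SE 0.31, adjusted p = 0.065). None was higher than on aspen (4.13% of all gene models) and 4 were lower (6.51%), by -6.51 log2 for 1431101, -3.14 for 1464049, -1.82 for 1480943 and -1.48 for 1468611. Against pine (10% of all gene models higher on wheat straw and 11.6% lower), the limits were passed by 1464049 alone, which was higher on wheat straw by 3.76 log2 (SE 0.32, adjusted p = 1.66e-06). The levels of the 2 less abundant AA2 genes thus differed between plant substrates, while that of 1436321 was within the limits of its level on aspen (0.61, SE 0.53) and pine (0.32, SE 0.53).

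Of the 16 cellulose-active enzymes, 13 were up-regulated on wheat straw and none was down-regulated, with a median log2 fold change of 4.38 (3 from the plant substrate tables and 13 from the secretome table). After the AA9 gene 1466495, the largest rises were those of the GH45 endoglucanase gene 1433077 (6.72 log2, SE 0.49), the GH12 gene 1358049 (5.78, SE 0.65) and the cellobiose dehydrogenase gene 1401955 (AA8-AA3_1, 5.48, SE 0.70). The study names 1358049 as potentially active on hemicellulose, and it was listed here by its GH12 family. The cellobiose dehydrogenase, which passes electrons from cellobiose to AA9 enzymes, had 8977, 18706 and 15006 normalised read counts on wheat straw, against 122, 171 and 664 on maltose. The GH45 gene had 3028, 7487 and 5200 on wheat straw, against 33.7, 28.3 and 86.3 on maltose. For both, maltose replicate 3 was the highest maltose library.

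The 3 members not called were a CBM1-GH3, a GH12 and a GH3 gene. The CBM1-GH3 gene 1404940 had 311, 1680 and 749 normalised read counts on wheat straw, against 323, 276 and 588 on maltose (log2 fold change 1.21, SE 0.60, adjusted p = 0.108), and the groups overlapped. The GH12 gene 1375723 had 176, 761 and 247 on wheat straw and 65.1, 51.3 and 211 on maltose (1.85, SE 0.82, adjusted p = 0.076). The GH3 beta-glucosidase gene 1434274 had 0.73 (SE 0.42, adjusted p = 0.165). Without wheat straw replicate 1, 1404940 and 1375723 passed the limits, at 1.62 (adjusted p = 0.0313) and 2.20 log2 (adjusted p = 0.0498), and 1375723 also did so without maltose replicate 3 (2.76, adjusted p = 0.0338) and in a fit of the wheat straw and maltose libraries alone (1.83, adjusted p = 0.036). Without wheat straw replicate 2 their differences shrank to 0.42 for 1404940 and 0.95 for 1375723.

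On Avicel most of the listed cellulose-active genes were higher still. Of the 16, 12 were lower on wheat straw than on Avicel (8.75% of all gene models), with a median difference over the list of -3.43 log2. Another 2 were higher, a share near the 13.3% of all gene models. These were the AA9 gene 1466495 (2.23, SE 0.67, adjusted p = 0.0147) and the GH12 gene 1358049 (1.95, SE 0.53, adjusted p = 0.00798). Among those lower were 1375723 (-5.83, SE 0.95), 1404940 (-3.67, SE 0.64), 1401955 (-2.49, SE 0.61) and 1433077 (-1.12, SE 0.38). Of the 2 that were higher, 1358049 is potentially active on hemicellulose by the text of the study. The study chose the secretome table by clusters, and 13 of the 16 come from it, among them all 12 that were lower. The study describes those clusters as mostly highest on Avicel. Both genes that were higher come from the plant substrate tables, which left out clusters high on Avicel. The direction against Avicel thus followed the source of a member and was partly fixed in advance. Compared with aspen, 6 were lower (6.51% of all gene models) and 1 was higher (4.13%). Compared with pine, 3 were lower (11.6%) and none was higher (10%). The AA9 gene 1466495 was the one above aspen, by 4.01 log2 (SE 0.73, adjusted p = 0.00145).

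All 13 hemicellulose-active enzymes rose on wheat straw, with a median log2 fold change of 3.02 (7 from the plant substrate tables, 6 from the secretome table). The number was 12 when any one of the 6 libraries was left out. Besides the CBM1-CE16 gene 1439328, the GH43 gene 1435501 had 835, 11562 and 5565 normalised read counts on wheat straw and 44.9, 39.8 and 95.3 on maltose (log2 fold change 6.63, SE 1.07, adjusted p = 9.1e-05). The GH51 gene 1357629, of a family of arabinofuranosidases, had 5938, 24035 and 13303 on wheat straw, against 369, 359 and 454 on maltose (5.19, SE 0.61). The GH115 gene 1426831, a glucuronidase that takes side chains off xylan, had 5708, 3598 and 3362 on wheat straw, against 103, 75.4 and 253 on maltose (4.87, SE 0.52). The GH43 and GH51 genes were lowest in wheat straw replicate 1, and the GH115 gene was highest there. Of the list, 5 were higher on wheat straw than on Avicel (13.3% of all gene models) and 5 lower (8.75%). All those higher come from the plant substrate tables, which left out clusters high on Avicel. All those lower come from the secretome table, whose clusters the study describes as mostly highest on Avicel. This split was thus partly fixed in advance. Compared with aspen none was higher (4.13% of all gene models) and 6 were lower (6.51%). The 3 largest differences were those of the GH10 xylanase gene 1395316 (-7.00), the CE1 gene 1377160 (-5.54) and the CBM1-CE1 gene 1392142 (-3.99). These 3 were not selected by size of change and are named because they lead that list. For 1395316 the libraries of wheat straw and maltose overlapped.

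The 6 pectin-active enzymes also rose on wheat straw, with a median log2 fold change of 4.75 (5 from the plant substrate tables). The GH28 polygalacturonase gene 688728 had 3501, 16958 and 10020 normalised read counts on wheat straw, against 73.0, 121 and 231 on maltose (log2 fold change 6.16, SE 0.63, adjusted p = 8.03e-07). The GH28 gene 1370654 had 2148, 20395 and 10918 on wheat straw and 180, 197 and 282 on maltose (5.67, SE 0.74). In contrast, the GH28 gene 1446047 was level among the straw cultures, with 4294, 4373 and 4143, against 191, 183 and 329 on maltose (4.19, SE 0.27). The CE8 pectin methylesterase gene 1438246 rose by 5.32 log2 (SE 0.38). Wheat straw was higher than Avicel for 4 of the 6 genes (13.3% of all gene models) and lower for none (8.75%). Compared with aspen 1 was lower (6.51% of all gene models) and none was higher (4.13%). Compared with pine 2 were lower (11.6%) and none was higher (10%).

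**Figure D3:**
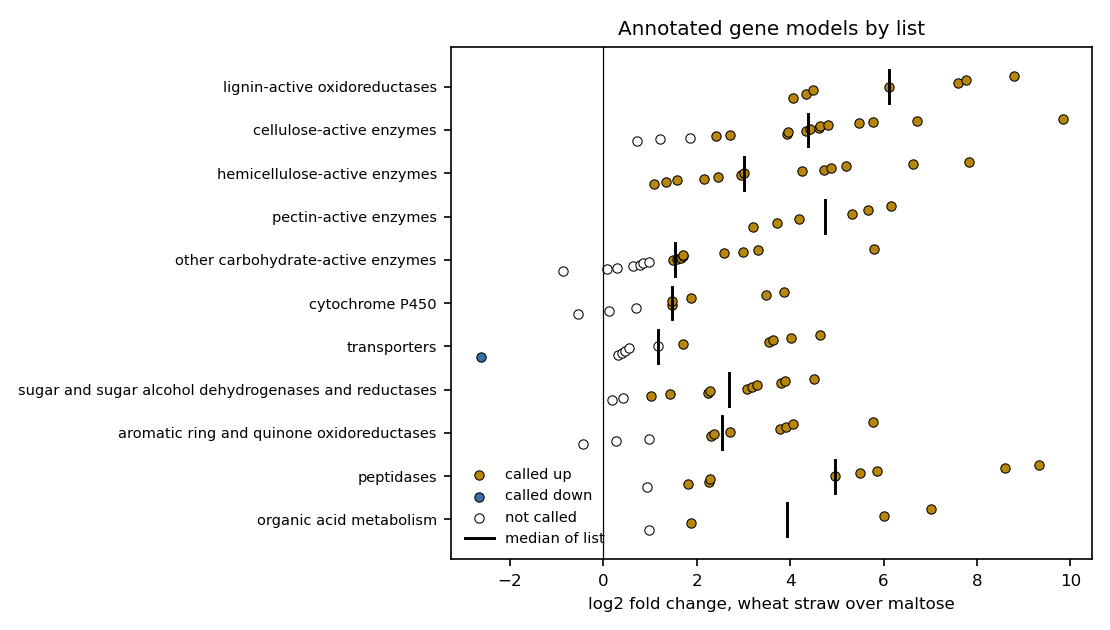
Log2 fold change, wheat straw over maltose, of each gene model in the 11 lists with more than 1 member, with the median of each list as a vertical line. Filled points passed the limits and open points did not. The medians run from 1.18 for transporters to 6.12 for lignin-active oxidoreductases, beside 0.02 for all gene models tested.

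Other carbohydrate-active enzymes were less uniform, with 9 of 16 up-regulated, none down-regulated and a median log2 fold change of 1.54 (10 from the plant substrate tables). The GH32 invertase-type gene 718112, whose family cleaves sucrose and fructans, had 2803, 4469 and 3556 normalised read counts on wheat straw, against 40.4, 51.3 and 101.2 on maltose (log2 fold change 5.80, SE 0.42, adjusted p = 2.23e-08). Rises of 3.31 (SE 0.46), 3.00 (SE 0.38) and 2.58 (SE 0.28) log2 were found for the GH47 mannosidase gene 1369367, the GH76 gene 320973 and the CE4 deacetylase gene 1433098. Enzymes known for cleaving starch and maltose were among those that rose, namely the GH15 glucoamylase gene 1507511, with 1.70 log2 (SE 0.34), and the GH31 alpha-glucosidase gene 1435128, with 4423, 6451 and 5530 normalised read counts on wheat straw, against 1601, 1803 and 2398 on maltose (SE 0.20 log2, adjusted p = 1.43e-05). These last genes were not among the largest changes of the list and were named after their values were seen. The most abundant of the 7 genes not called were the PL8_4 lyase gene 1466845 (0.63, SE 0.23, adjusted p = 0.0318), the GH27 galactosidase gene 1431843 (0.97, SE 0.25, adjusted p = 0.00496) and the GH17 gene 1433845 (0.07, SE 0.34, adjusted p = 0.887). The first of these differed by less than the limit on the fold change although its adjusted p was under 0.05, and so did 1431843, which passed both limits without wheat straw replicate 1 (1.15) and without maltose replicate 2 (1.05).

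Of 9 peptidases, 8 were up-regulated, by amounts that differed widely, with a median log2 fold change of 4.97 (7 from the plant substrate tables), and they held 0.519 to 0.688% of the counts on wheat straw, against 0.0191 to 0.025% on maltose. Besides the pair of tripeptidyl-peptidase genes described with the largest rises, the serine carboxypeptidase gene 1437875 had 11450, 6273 and 8784 normalised read counts on wheat straw, against 138, 164 and 155 on maltose (log2 fold change 5.86, SE 0.41). Another gene with a tripeptidyl-peptidase annotation, 1471389, had 2406, 6666 and 6112 on wheat straw and 89.8, 77.5 and 167 on maltose (5.50, SE 0.53). It was also higher than on Avicel, aspen and pine, by 5.03, 1.66 and 4.45 log2. The calpain-type cysteine peptidase gene 1448471, which falls outside the rule for named genes, rose by 4.97 log2 and was higher than on Avicel, aspen and pine by 3.88, 4.28 and 2.66 log2 (SE 0.36 to 0.39). The aspartic peptidase gene 618009 was the member not called, at 0.93 (SE 0.21, adjusted p = 0.00154). It reached 1.09 without wheat straw replicate 2.

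Reductases and dehydrogenases of sugars and related compounds rose in 10 of 12 cases, with a median log2 fold change of 2.68 (all 12 from the plant substrate tables). The aldo/keto reductase gene 1378769 had 8030, 11602 and 9324 normalised read counts on wheat straw, against 297, 446 and 519 on maltose (log2 fold change 4.52, SE 0.25, adjusted p = 2.36e-09). The aldo/keto reductase genes 1370490 and 1399796 rose by 3.89 (SE 0.45) and 3.80 log2 (SE 0.33). Gene 1399796 carries the EC number of an aryl-alcohol dehydrogenase, which acts on aromatic alcohols and not on sugars. The dehydrogenase gene 1452045, annotated as arabinitol dehydrogenase, had 1334, 1575 and 1548 on wheat straw and 139, 173 and 145 on maltose (3.29, SE 0.33). Genes 1475242 (0.43, SE 0.20, adjusted p = 0.0818) and 1382595 (0.19, SE 0.32, adjusted p = 0.644), both short-chain dehydrogenases, were not called. The EC number of 1475242 is that of a reductase of fatty acid synthesis. Gene 1431545, which falls outside the rule for named genes, carries the same EC number and rose by 3.19 log2 (SE 0.20). In comparison to Avicel, 9 of the 12 genes were higher on wheat straw (13.3% of all gene models) and none lower (8.75%). The median difference of the list from aspen was -0.23 log2. Gene 1370490 differed from aspen by 1.04 (SE 0.40) without passing the limits, and passed them with DESeq2 (1.03, adjusted p = 0.0445).

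Transporters were divided, with 5 of 11 up-regulated and 1 down-regulated (all 11 from the plant substrate tables, 3 of them from that for wheat straw). The oligopeptide transporter gene 1420090 had 2460, 4350 and 4813 normalised read counts on wheat straw, against 153, 175 and 139 on maltose (log2 fold change 4.64, SE 0.52, adjusted p = 1.93e-06). The others with the largest rises belong to the major facilitator superfamily of sugar transporters. Gene 1452937 had 11279, 18863 and 14571 on wheat straw and 1284, 890 and 574 on maltose (4.02, SE 0.40), and 1441122 and 1428914 rose by 3.64 and 3.54 log2. The facilitator gene 1436606, with 232, 67.5 and 120 on wheat straw, against 723, 795 and 1082 on maltose, was the one that fell (-2.63, SE 0.49, adjusted p = 0.000313). It was lower than on pine as well, by -6.03 log2 (SE 0.56), and comes from the table for pine. Among those not called, the ABC transporter gene 1436847 (0.39, SE 0.34) was higher than on Avicel by 4.74 log2 and lower than on pine by -3.44. The facilitator gene 1434155 differed by 1.18 log2 (SE 0.50, adjusted p = 0.0606), with 4678, 738 and 1772 on wheat straw and 1217, 1263 and 685 on maltose, and its value rested on single libraries. It passed the limits without wheat straw replicate 2 (1.61, adjusted p = 0.00651), with DESeq2 (1.15, adjusted p = 0.0333) and with all 18 libraries (1.21, adjusted p = 0.0476), and was 0.25 without wheat straw replicate 1. The facilitator gene 1433543 had 0.54 (SE 0.20, adjusted p = 0.0355).

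Of the 8 cytochrome P450 genes, which encode heme monooxygenases of many lipophilic and aromatic compounds, 5 rose (all 8 from the plant substrate tables). Gene 1435960 had 4540, 6415 and 5606 normalised read counts on wheat straw, against 373, 354 and 407 on maltose (log2 fold change 3.87, SE 0.28, adjusted p = 2.6e-08). Genes 1369748, 1436381 and 1521754 rose by 3.48 (SE 0.32), 1.88 (SE 0.19) and 1.48 log2 (SE 0.33). The 3 not called were 1362757 (-0.55, SE 0.45), 1439874 (0.69, SE 0.37) and 1469032 (0.13, SE 0.32). For 1362757 the straw libraries were far apart, with 1781, 404 and 608, against 1356, 1384 and 1340 on maltose, and without wheat straw replicate 1 its difference of -1.43 passed the limits (adjusted p = 0.0082).

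Aromatic ring and quinone oxidoreductases rose in 7 of 10 cases, with a median log2 fold change of 2.54 (all 10 from the plant substrate tables). A flavin monooxygenase gene annotated as salicylate monooxygenase, 1411633, had 2821, 1509 and 2533 normalised read counts on wheat straw, against 52.8, 17.8 and 54.6 on maltose (log2 fold change 5.77, SE 0.41, adjusted p = 2.09e-08). The gene 1442642, annotated as homogentisate dioxygenase, an enzyme that opens an aromatic ring, had 5821, 574 and 1162 on wheat straw and 148, 115.2 and 189 on maltose (4.06, SE 0.69, adjusted p = 0.000141). Its value became 2.52 without wheat straw replicate 1. The flavin-containing monooxygenase gene 1434060 (3.91, SE 0.37) was higher on wheat straw than on each of Avicel, aspen and pine too, by 1.85, 1.94 and 1.38 log2. Its EC number is that of a cyclohexanone monooxygenase, whose substrate is a ring ketone that is not aromatic. The phenol monooxygenase gene 1433057 rose by 3.79 log2 (SE 0.38). All 10 genes were higher on wheat straw than on Avicel (13.3% of all gene models), but the plant substrate tables left out clusters high on Avicel. Those not called against maltose were the quinone reductase genes 1392196 (0.98, SE 0.17, adjusted p = 0.00016) and 1471626 (-0.44, SE 0.23, adjusted p = 0.125), and 1439160 (0.27, SE 0.25, adjusted p = 0.384). Gene 1392196 lay at the limit on the fold change and passed it in 5 of 14 alternatives, with 1.01 or 1.02 log2.

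Genes annotated for organic acid metabolism carried more counts than any other list in wheat straw replicates 2 and 3, with 0.373, 1.24 and 0.984% of the libraries, against 0.019, 0.0163 and 0.0262% on maltose (4 members, all from the plant substrate tables, and 3 of them up-regulated). The gene 1371554, placed in the isocitrate lyase family by its KOG but with the EC number of a carboxyphosphonate phosphorylmutase, had 76646, 219773 and 188785 normalised read counts on wheat straw, against 3088, 1769 and 2692 on maltose (log2 fold change 6.01, SE 0.62, adjusted p = 9.25e-07). The gene 1511705, annotated as an L-lactate dehydrogenase of the glycolate oxidase family, had 27738, 132274 and 94702 on wheat straw and 790, 482 and 709 on maltose (7.01, SE 0.67, adjusted p = 4.03e-07). For both, replicate 1 was the lowest straw library and remained above every maltose library. Both were also higher than on Avicel, by 7.27 and 7.79 log2, and than on aspen, by 6.79 and 6.67, but did not pass the limits against pine, at 0.46 (SE 0.50, adjusted p = 0.488) and 1.35 (SE 0.53, adjusted p = 0.05). The galactonate dehydratase gene 1341535 rose by 1.87 log2 (SE 0.23) and was higher than on Avicel, aspen and pine by 2.68, 1.43 and 1.07. The glycolate oxidase gene 1439683 was not called (0.97, SE 0.21, adjusted p = 0.000979).

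Each of a further pair of lists had a single member, from the secretome table. The proteasome subunit gene 1439714, annotated as PSMB1/PRE7, had 17983, 38986 and 30443 normalised read counts on wheat straw, against 4071, 3987 and 3342 on maltose (log2 fold change 2.94, SE 0.28, adjusted p = 4.04e-07). A single subunit says nothing of the proteasome as a whole. The cerato-platanin gene 1468081, of a family of small secreted fungal proteins, had 295, 1113 and 489 on wheat straw, against 222, 108 and 228 on maltose (1.77, SE 0.54, adjusted p = 0.0131). This call was lost without wheat straw replicate 2 (1.08, adjusted p = 0.108) and without maltose replicate 2 (1.49, adjusted p = 0.0616).

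**Figure D4:**
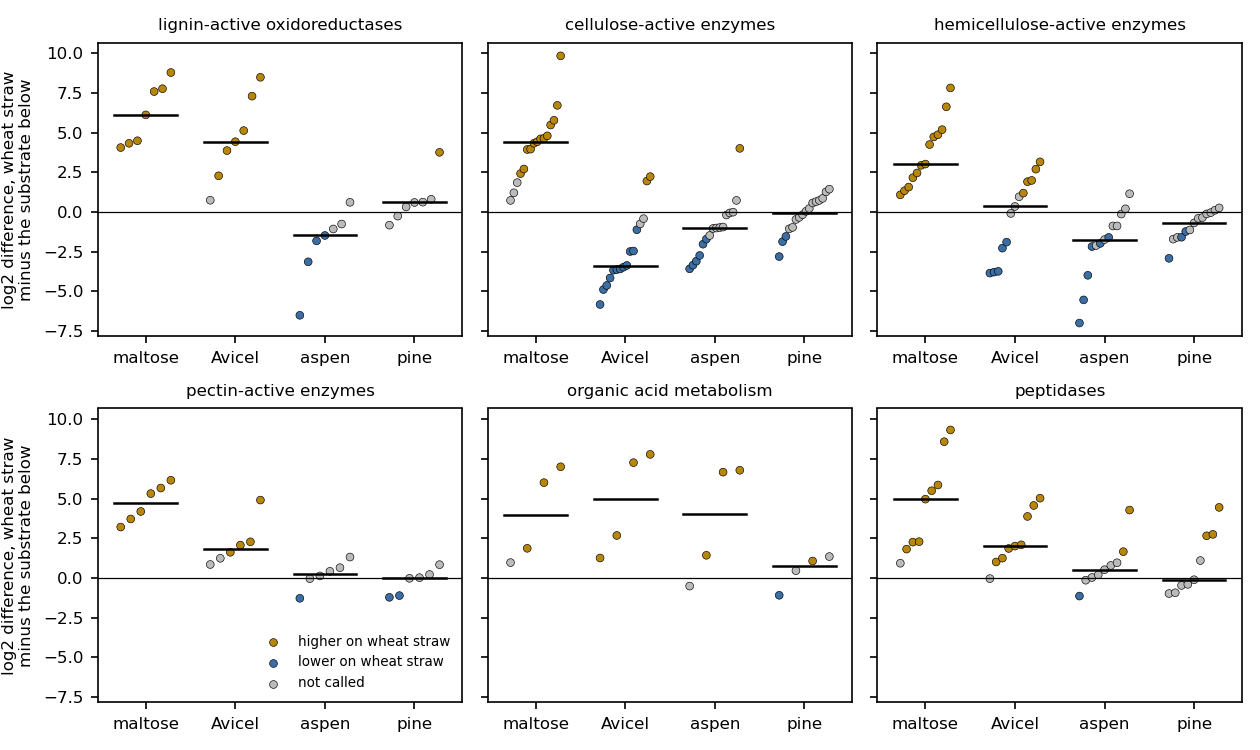
Log2 difference of wheat straw minus maltose, Avicel, aspen and pine for the members of 6 lists, each point a gene model, coloured by whether it was higher, lower or not called on wheat straw, with the list median as a bar. Cellulose-active enzymes had a median of 4.38 against maltose and -3.43 against Avicel, and organic acid metabolism had 3.94 and 4.98. The contrasts share the wheat straw libraries, and differences from maltose and Avicel partly followed from how the members were picked.

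Up- and down-regulated gene models were also found side by side in the genome. In the order of the public Pycco1 annotation, where a locus tag ends in the identifier of 12680 of the gene models, 14 runs of 3 or more neighbours were called the same way with a change over 3 log2, 8 of them up and 6 down. The annotation names no chromosome, so no positions are given, and a new scaffold was taken to begin wherever start positions fell back. The run with the largest median change consisted of 525387, 1468672 and 1369309, with log2 fold changes of -3.35, -7.35 and -9.72. It held 0.00717 to 0.0529% of the counts of the wheat straw libraries, against 0.73 to 0.768% on maltose. The level of 525387 differed widely among the straw libraries, with 15824, 1682 and 3112 normalised read counts, against 95598, 75479 and 39351 on maltose. The values of 1468672 were 234, 160 and 274 on wheat straw and 33737, 38262 and 36776 on maltose.

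The pair of organic acid genes 1511705 and 1371554 enclosed another up-regulated neighbour, 710961, in the run with the next largest median. Gene model 710961 had 18, 27 and 20 raw counts on wheat straw and none on maltose, which makes it at least 15.4-fold higher on wheat straw when the floor is set at 3 counts over the maltose group. Its adjusted p was 9.5e-05, and the call was lost with Bonferroni adjustment. Both neighbours of this weakly counted gene model are highly transcribed on wheat straw, and the part of their reads in its counts was not tested. In the third run, 1418284, 1375860 and 1029442 rose by 4.79 (SE 0.26), 5.67 (SE 0.54) and 5.34 log2 (SE 0.47). Their levels on wheat straw were 529 to 570, 1977 to 2686 and 1221 to 1693 normalised read counts, against 13.9 to 24.7, 41.7 to 50.3 and 23.8 to 48.2 on maltose. The genes 1375860 and 1029442 overlap in the annotation, and whether strand was used in counting is not given in the sources used here, so their values may share reads. Of the 97 named gene models, 28 overlap a neighbour in this way.

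**Figure D5:**
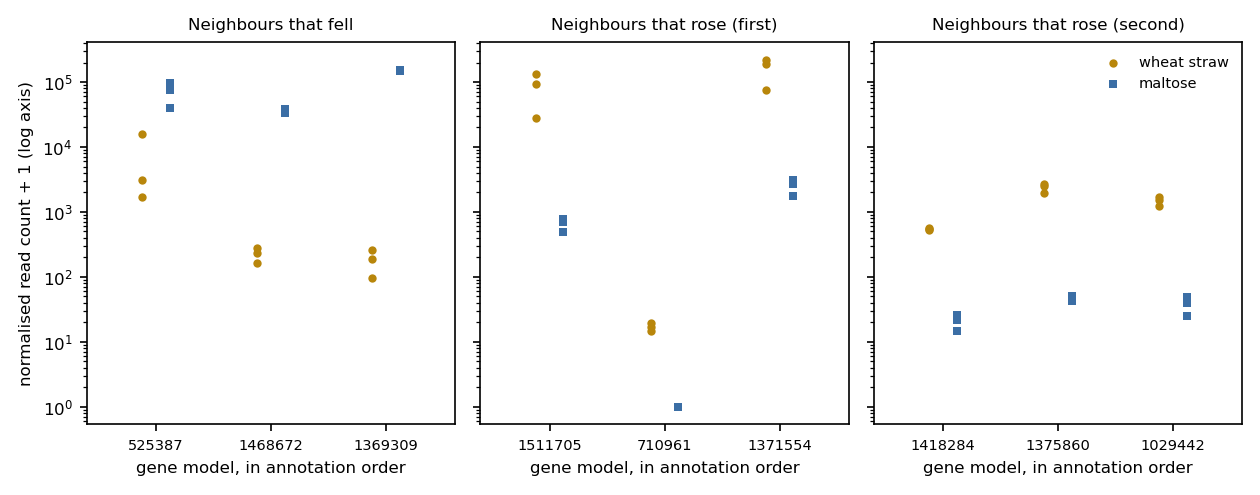
Normalised read counts plus 1 (log axis) of the gene models in the 3 neighbouring runs with the largest median change, in annotation order, with wheat straw as circles left of maltose as squares and 1 point per library. The first run had log2 fold changes of -3.35, -7.35 and -9.72 and the gene models of the other runs with counts in both groups rose by 4.79 to 7.01 log2.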

How the data were processed

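RNA of Pycco 310 was sequenced as paired-end reads. The authors aligned reads with TopHat2, used HTSeq for counting, and deposited raw counts for each gene model and library; the submitters' processing notes also list DESeq 1.5. The authors also deposited RPKM, equal to raw counts per mappable length and library total; RPKM were used only to compare levels between genes, and 828 gene models with mappable length 0 are listed at 0 there (3 of them tested). All 36 value columns matched a sample. The study calls the 3 libraries of a group biological replicates.

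The test on raw counts was that of edgeR 4.0.16 (R 4.3.3, limma 3.58.1), with TMM factors, filterByExpr, glmQLFit and glmQLFTest and Benjamini-Hochberg adjustment over 11112 gene models. The standard error (SE) is the absolute log2 fold change over the root of F. On simulated counts of 11026 gene models, 86% of changes of 1.5 log2 and 99% of changes of 3 log2 were recovered for wheat straw against maltose, with 5 false calls. The simulation changed 100 gene models at each size, far fewer than were called in the data, so these figures need not carry over. Named genes were the 12 largest rises and falls with libraries apart and a mean normalised count of at least 100, for each list the 4 called members with the largest change and up to 3 members not called, the 5 highest RPKM of each group, and 3 neighbouring runs; exceptions are marked. Members, lists and rules were chosen with earlier results of these data known. Lists were not tested as sets. Lists of starch, glycolysis, ribosomal and redox genes held no member as built here. The GH15 glucoamylase and GH31 alpha-glucosidase genes were counted by their CAZy family among the other carbohydrate-active enzymes. No sequence was used here. Alternatives were RLE factors, DESeq2 1.42.0, no filter, other sets of libraries, Bonferroni adjustment, leaving out each library, and the replicate number as a block. Plots used matplotlib 3.10.9 with Python 3.11.15.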

Additional observations from a re-analysis of the deposited data

How the results depend on the processing

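Of the 97 named gene models, 79 kept their side of the limits against maltose in all 14 alternatives. The counts of 1926 up- and 1431 down-regulated gene models stayed within 1.5 times under all alternatives but Bonferroni adjustment, which left 756 and 571. Leaving out each library gave 1810 to 2043 up-regulated and 1325 to 1488 down-regulated gene models, the highest up-regulated count being without maltose replicate 3. With DESeq2 the counts were 1912 and 1490, and with the replicate number as a block (replicate block) 1946 and 1413. The replicate numbers were not treated as pairs, since deviations of same-numbered libraries correlated with r of 0.0346, 0.0871 and 0.193. The block changed the call of none of the named gene models. Maltose replicate 1 correlated best with wheat straw replicate 2, the other maltose libraries with their own number. A fit of all libraries but xylan-galactomannan replicate 3, chosen after seeing the data, gave 2001 and 1397.

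Bonferroni adjustment removed 10 calls among named gene models, those of 525387, 710961, 1429921, 1434042, 1435501, 1439266, 1442642, 1468081, 1475073 and 1521754. Leave-one-out counts of list members ranged from 0 to 1 for down-regulated members of the other carbohydrate-active enzymes (0 with all libraries, 1 without maltose replicate 2), from 0 to 1 for down-regulated cytochrome P450 genes (1 without wheat straw replicate 1), and from 0 to 1 for the cerato-platanin list (0 without wheat straw replicate 2 or maltose replicate 2). A few small differences changed sign, none of them called. With libraries left out, 1382595 ranged from -0.10 (without wheat straw replicate 2) to 0.41 in place of 0.19, 1433845 from -0.38 (without wheat straw replicate 2) to 0.37 in place of 0.07, with -0.06 without maltose replicate 1, and 1469032 from -0.04 (without maltose replicate 2) to 0.31 in place of 0.13. With DESeq2, the difference of 1370654 from pine was -0.01 in place of 0.02. The cause was not tested. Depth limits the gene models with few counts on one side, such as 710961 and 1475292.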
